A study of Mus musculus with 8 samples.

Results

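The growth hormone, STAT5 and IGF1 axis was followed here as 10 genes of the mouse liver, Ghr, Stat5a, Stat5b, Igf1, Igfals, Igfbp3, Socs2, Cish, Bcl6 and Cux2, out of 56953 gene identifiers counted in each library. They were taken by name, and all 10 were found and passed the filter on low counts. Of the 8 libraries, 4 were from livers of adult male HSC-PCK1-KO mice, with a knockout of Pck1, the gene of cytosolic phosphoenolpyruvate carboxykinase, aimed at hepatic stellate cells. The other 4 were from livers of adult male controls labelled wild type, and each library is called a liver here. Both groups ate CDHFD, a choline-deficient high-fat diet that makes the liver fatty, inflamed and fibrotic, for 8 weeks. The labels put all 8 libraries in a single batch and do not name the Cre line, its promoter or the strain. The libraries hold whole-liver mRNA, in which hepatocytes contribute most of the transcripts, and stellate cells are a small part of the tissue. The study's title links loss of the enzyme in stellate cells to fibrosis, and the comparison below asks whether this hormone axis differed between the genotypes.

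Growth hormone is released from the pituitary in pulses and acts on hepatocytes through its receptor GHR, which activates the kinase JAK2 and the transcription factors STAT5A and STAT5B. Active STAT5 drives transcription of Igf1 and Igfals, which encode circulating proteins, and of Socs2 and Cish, whose products damp the signal. Male mice have well separated pulses and female mice a near continuous supply, and this difference sets much of the sex bias of liver genes, with BCL6 and CUX2 as repressors on the male and the female side.

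Library totals ranged from 44695439 to 49477255 counts, and levels are given in CPM, counts per 1000000 after scaling by TMM factors. Correlations of log2 CPM between libraries were 0.976 to 0.990 within groups and 0.979 to 0.991 between them. Pck1 itself stood at 339, 795, 593 and 948 CPM in HSC-PCK1-KO livers 1 to 4, against 1002, 2012, 551 and 1028 CPM in control livers 1 to 4. Hepatocytes express Pck1 strongly, so whole-liver Pck1 is no check of the stellate cell knockout. Hepatocyte marker genes summed to 100700 to 120600 CPM in HSC-PCK1-KO livers, against 101800 to 120900 CPM in control livers, which fits the label of liver tissue. The labels do not say whether separate mice gave the libraries, so a p-value measures the spread between these samples.

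None of the 10 genes differed between the genotypes beyond the spread between livers. In edgeR's quasi-likelihood test with Benjamini-Hochberg adjustment over 15669 genes, 0 of the 10 passed an adjusted p of 0.05, where 0% of all tested genes did, and all 10 had an adjusted p of 0.9998. At an unadjusted p under 0.05 there were 0 of the 10, against 2.36% of all tested genes. DESeq2 and limma-voom also called 0 of the 10, where they called 0.0383% and 0% of all tested genes, and 2.34% and 2.37% had an unadjusted p under 0.05. The ranges of the 2 groups overlapped for all 10, while 1.53% of all tested genes had groups that did not overlap. The log2 fold change, HSC-PCK1-KO minus control, was negative for 6 and positive for 4 of the 10, where 51.8% of all tested genes were negative, with a median of -0.11 beside -0.0055 over all tested genes. For 6 of the 10, Ghr, Stat5a, Stat5b, Igf1, Igfals and Igfbp3, the 95% interval excluded a 2-fold difference in either direction. For Socs2, Cish and Bcl6 it excluded a 2-fold difference in neither direction, and for Cux2 it excluded a 2-fold rise but not a 2-fold fall.

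**Figure D1:**
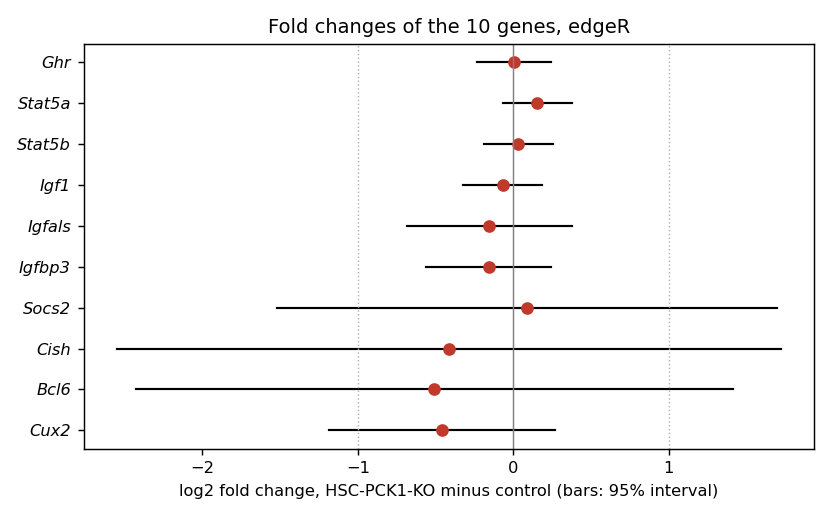
Log2 fold change (HSC-PCK1-KO minus control, horizontal axis) of the 10 genes with the 95% interval of edgeR's fit as a bar, and dotted lines at a 2-fold difference. Every interval crosses 0, and those of Socs2, Cish and Bcl6 are wider than the rest.

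The receptor and its transcription factors were steady across the 8 livers. Ghr (ENSMUSG00000055737.13), which encodes the growth hormone receptor, stood at 614, 495, 504 and 533 CPM in HSC-PCK1-KO livers 1 to 4, against 499, 618, 543 and 480.5 CPM in control livers 1 to 4. The highest and the lowest Ghr library were both controls, and its log2 fold change was 0.0038 (SE 0.11), with a 95% interval from 0.849-fold to 1.18-fold. Stat5b (ENSMUSG00000020919.12), the form known to carry most of the growth hormone signal in mouse liver, had 58.3, 64.3, 59.2 and 75.1 CPM in HSC-PCK1-KO livers, against 55.9, 70.5, 60.9 and 63.8 CPM in control livers, a log2 fold change of 0.032 (SE 0.10). Stat5a (ENSMUSG00000004043.15), its close relative, had 20.7, 25.5, 19.99 and 24.7 CPM in HSC-PCK1-KO livers, against 20.2, 19.8, 18.6 and 23.0 CPM in control livers, a log2 fold change of 0.15 (SE 0.10). Its mean was 22.7 ± 2.81 CPM against 20.4 ± 1.84 CPM (SD, n = 4 each), and the groups overlapped. The highest library of each of these 3 genes exceeded the lowest by 1.29-fold for Ghr, 1.37-fold for Stat5a and 1.34-fold for Stat5b.

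Per kilobase of exon, Stat5b exceeded Stat5a in every library, by 3.65 ± 0.294-fold in HSC-PCK1-KO and 3.98 ± 0.501-fold in control livers (SD, n = 4 each). The length used is the union of all annotated exons, 7133 bases for Stat5a and 5539 for Stat5b. The transcripts made in liver may differ in length, so the size of the fold depends on this choice. The 2 genes share sequence: 3.44% of the 100-base windows of Stat5a transcripts and 4.79% of those of Stat5b are identical in the other gene. How the authors assigned reads that match both is not given in the sources used here, so a small part of either count is uncertain.

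Compared per kilobase of exon, the level of the 10 genes followed a steep order, which depends on the same union lengths. Ghr came first at 59.3 ± 5.97 CPM per kb in HSC-PCK1-KO and 59.1 ± 6.73 in control livers. Igf1 followed at 44.2 ± 4.77 and 46.3 ± 5.86, then Igfals at 27.7 ± 6.62 and 30.8 ± 8.24 CPM per kb (SD, n = 4 each). Stat5b and Igfbp3 came next, and each gene down to Igfbp3 stood above the next in 8 of 8 libraries. Below them, Igfbp3, Bcl6, Stat5a and Cish changed places between libraries: Igfbp3 was above Bcl6 in 5 of 8, Bcl6 above Stat5a in 4 of 8 and Stat5a above Cish in 6 of 8. Cish was above Socs2 in 7 of 8, the exception being control 2. Cux2 was last at 0.0238 ± 0.00634 CPM per kb in HSC-PCK1-KO and 0.0328 ± 0.0105 in control livers, under Socs2 in all 8.

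**Figure D2:**
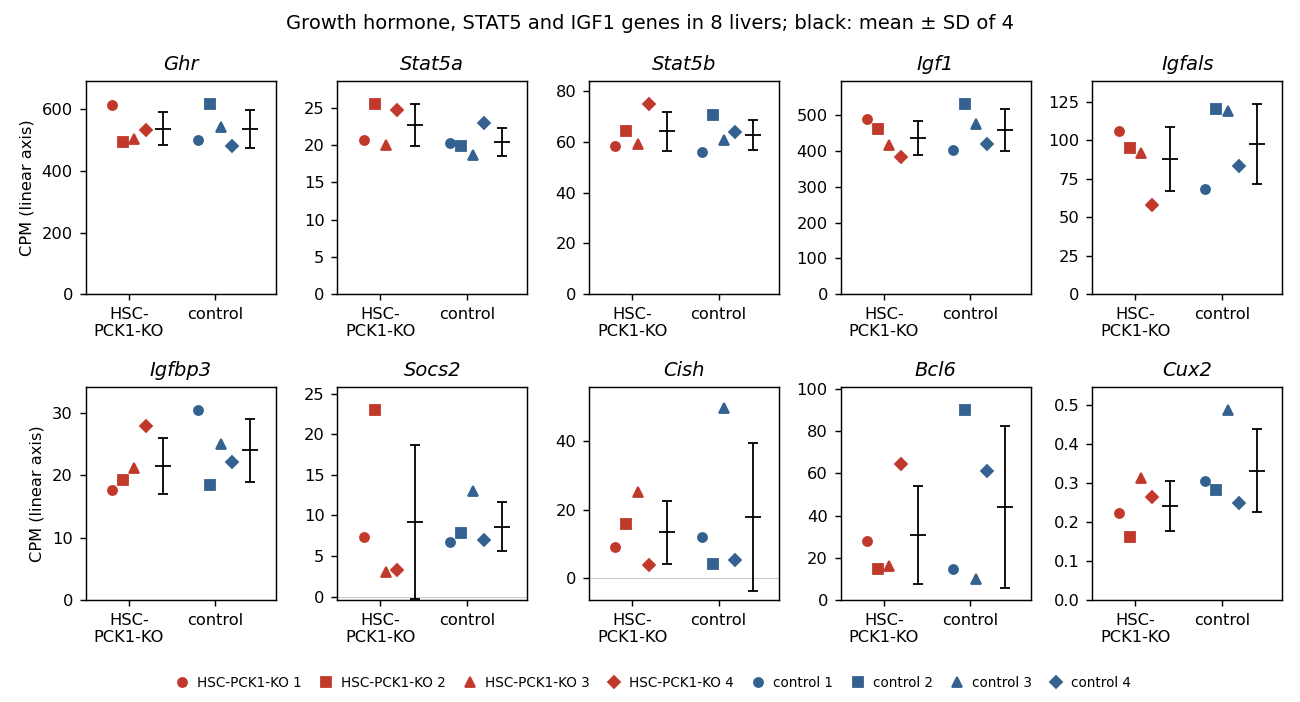
Level of each of the 10 genes in CPM (vertical axes, linear and starting at or below 0) in the 4 HSC-PCK1-KO livers and the 4 control livers, with the mean ± SD of each group in black. Ghr, Stat5a, Stat5b and Igf1 vary little, whereas Socs2, Cish and Bcl6 spread 7.54-fold to 12.6-fold over the 8 livers.

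The secreted products of the axis form the ternary complex that carries IGF1 in blood, made of IGF1, a binding protein such as IGFBP3 and the acid-labile subunit IGFALS. Igf1 (ENSMUSG00000020053.19), the growth factor, had 488, 463, 417 and 382 CPM in HSC-PCK1-KO livers 1 to 4, against 404, 532, 476 and 421 CPM in control livers 1 to 4. The lowest liver was HSC-PCK1-KO 4 and the highest control 2, a 1.39-fold range, and the log2 fold change was -0.067 (SE 0.11), with a 95% interval from 0.801-fold to 1.14-fold. Igfals (ENSMUSG00000046070.10) had 106, 95.03, 92.1 and 57.7 CPM in HSC-PCK1-KO livers, against 68.3, 120, 119 and 83.1 CPM in control livers, a log2 fold change of -0.15 (SE 0.23). HSC-PCK1-KO 4 and control 1 were its 2 lowest libraries.

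Igfbp3 (ENSMUSG00000020427.12), the main IGF carrier, is made in liver chiefly by non-parenchymal cells, as shown in rat. It had 17.7, 19.2, 21.2 and 27.9 CPM in HSC-PCK1-KO livers, against 30.5, 18.5, 24.96 and 22.1 CPM in control livers, a log2 fold change of -0.16 (SE 0.18). The same 2 libraries that were lowest for Igfals, HSC-PCK1-KO 4 and control 1, were the 2 highest for Igfbp3. The 10 markers of quiescent stellate cells, all detected, summed to 272 to 323 CPM in HSC-PCK1-KO livers, against 305 to 365 CPM in control livers. Markers of sinusoidal endothelial cells, all 9 detected, summed to 261 to 344 CPM in HSC-PCK1-KO livers, against 292 to 331 CPM in control livers, and the 8 Kupffer cell markers to 276 to 512 CPM and 331 to 511 CPM. The part of these cell types in the Igfbp3 level was not tested. In whole liver, fewer cells of a type and less RNA per cell cannot be told apart.

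Igf1 and Igfals moved together across livers of both genotypes. Over the 8 libraries, log2 CPM of the 2 genes correlated with Pearson's r = 0.917 (exact permutation p = 0.00112, 0.010 after Benjamini-Hochberg adjustment over the 9 relations of Igf1 with the other genes) and Spearman's rho = 0.952 (exact permutation p = 0.00114, adjusted 0.0103). Taken as deviations from each genotype's mean, r was 0.913. Without the 2 libraries farthest from the median of Igf1, HSC-PCK1-KO 4 and control 2, r was 0.870 over 6 libraries (exact permutation p = 0.0153, adjusted 0.137). Without HSC-PCK1-KO 4 alone r was 0.886 (exact permutation adjusted p = 0.0643).

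Igfbp3 ran opposite to Igf1, with r = -0.740 (exact permutation p = 0.0401, adjusted 0.152) and rho = -0.786 (exact permutation p = 0.0279, adjusted 0.126), which did not pass over the 9 relations. Without the same 2 libraries r was -0.601. Ghr ran with Igf1 at r = 0.710 (exact permutation p = 0.0506, adjusted 0.152) and rho = 0.571 (exact permutation p = 0.151, adjusted 0.340). Its r was 0.749 without the 2 libraries farthest from the median of Igf1, but 0.095 without the 2 farthest from that of Ghr. Without control 2 alone it was 0.523. The relation of Igf1 with Stat5b had r = -0.0041, with Cish 0.0921 and with Bcl6 0.0653, and exact permutation p of 0.992, 0.825 and 0.875.

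**Figure D3:**
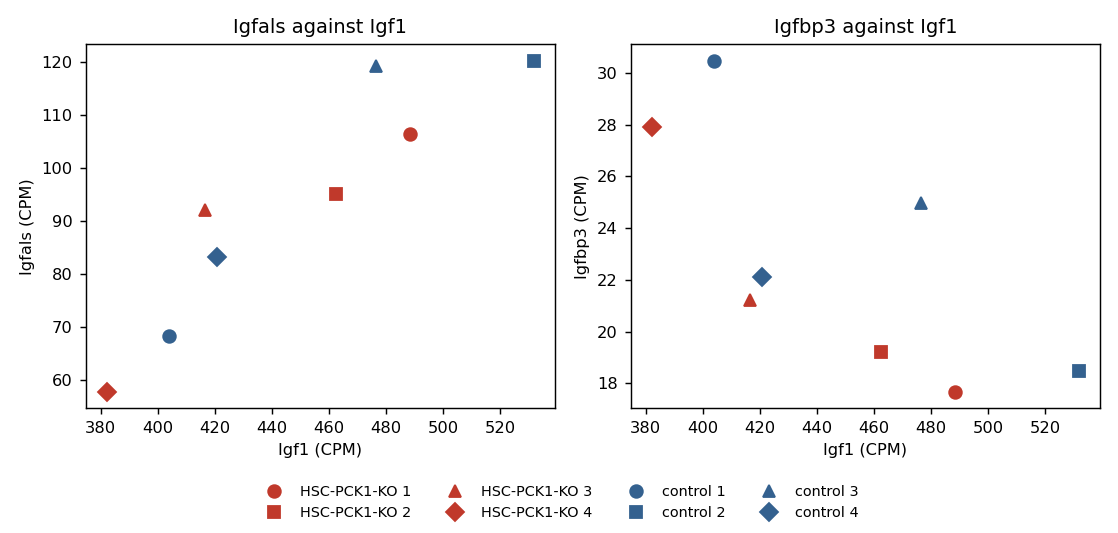
Igfals (left) and Igfbp3 (right) in CPM against Igf1 in CPM, 1 point per liver, with colour for genotype and shape for replicate number (linear axes that do not start at 0). Igfals is higher where Igf1 is higher (r = 0.917 on log2 CPM) and Igfbp3 lower (r = -0.740), with both genotypes mixed along each cloud.

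The feedback inhibitors were the most variable genes of the axis together with Bcl6. Cish (ENSMUSG00000032578.8), a STAT5 target whose protein CIS blocks STAT5 docking at cytokine receptors, had 9.12, 15.9, 25.1 and 3.96 CPM in HSC-PCK1-KO livers 1 to 4, against 12.2, 4.36, 49.9 and 5.51 CPM in control livers 1 to 4. Control 3 was highest, HSC-PCK1-KO 4 lowest, and the 12.6-fold range between them rested on counts of 2359 and 195. The log2 fold change was -0.41 (SE 0.91) with a 95% interval from 0.171-fold to 3.30-fold, and it was 0.88 without control 3. Exons of 2 genes on the other strand, Gm17040 and Gm17041, cover 11.5% of the exon bases of Cish in the GENCODE M21 annotation. The libraries keep strand, but whether the counting used it is not given, so reads of these genes could be part of the Cish count.

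Socs2 (ENSMUSG00000020027.19), the main brake on growth hormone receptor signalling in mice, had 7.33, 23.0, 3.05 and 3.33 CPM in HSC-PCK1-KO livers 1 to 4, against 6.68, 7.88, 13.1 and 6.93 CPM in control livers 1 to 4. The HSC-PCK1-KO group held both extremes, a 7.54-fold range, while control livers ranged 1.96-fold. Its log2 fold change of 0.091 (SE 0.68) was -0.92 without HSC-PCK1-KO 2, with an unadjusted p of 0.0406 and an adjusted p of 1.0 in edgeR. The windows of Socs2 transcripts that recur in the predicted gene Gm9847 were 2.31% of the total.

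Bcl6 (ENSMUSG00000022508.6), a zinc finger repressor that competes with STAT5 for sites in liver chromatin and is itself repressed by growth hormone pulses in mouse liver, had 28.0, 15.0, 16.4 and 64.1 CPM in HSC-PCK1-KO livers 1 to 4, against 14.8, 89.9, 10.1 and 61.0 CPM in control livers 1 to 4. Its highest library was control 2 with 3810 counts and its lowest control 3 with 477 counts. Each genotype had high and low livers, and the log2 fold change of -0.51 (SE 0.81, 95% interval from 0.186-fold to 2.66-fold) was 0.11 without control 2.

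As a description that does not use the counts, the reference sequence before the start sites of the axis genes was searched for TTCNNNGAA. This is the STAT5 consensus, which reads the same on both strands. Promoter windows of 250 bases upstream of the start were taken from RefSeq (GRCm38.p6), where 9 of the 10 genes had 16 windows. Socs2 had none in that table. The consensus was in 4 of the 16 windows, against 7.02% of 32851 windows of all genes. The window of the downstream Bcl6 start held 3 matches, a number reached by 9 of the 32851 windows, or 0.0274%, and the window of its upstream start held 1. Both Bcl6 windows are shown because they carry 4 of the 6 matches in the axis. They lie on the minus strand at chr16:23981284-23981533 and chr16:23988853-23989102, outside the annotated exons of Bcl6, are printed 5′ to 3′, and have the matches in capitals.
Bcl6 downstream start: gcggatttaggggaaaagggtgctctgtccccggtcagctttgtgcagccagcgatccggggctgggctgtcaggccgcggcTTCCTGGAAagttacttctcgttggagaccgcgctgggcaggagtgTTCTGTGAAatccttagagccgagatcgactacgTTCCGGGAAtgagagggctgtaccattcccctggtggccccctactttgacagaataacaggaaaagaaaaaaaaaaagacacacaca
Bcl6 upstream start: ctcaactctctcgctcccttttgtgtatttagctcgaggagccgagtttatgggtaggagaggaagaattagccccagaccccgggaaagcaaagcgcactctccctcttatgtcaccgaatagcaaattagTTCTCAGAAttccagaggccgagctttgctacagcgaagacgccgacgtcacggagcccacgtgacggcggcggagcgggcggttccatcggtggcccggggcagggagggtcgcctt

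The matches TTCCTGGAA, TTCTGTGAA and TTCCGGGAA begin 168, 122 and 88 bases before the downstream start, and TTCTCAGAA begins 118 bases before the upstream start. The other 2 matches, TTCTCAGAA and TTCCTAGAA, were in 2 of the 3 windows of Igfals. A match describes the letters of the reference and not a bound site. No match in the Cish or Igf1 window says only that these letters are not in that window. All 250 bases of the Cish window, and all 250 of the Igf1 window, lie in annotated exons of the gene itself. The Bcl6 windows have 0 such bases, so these windows are not alike in their place in the gene.

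Bcl6 and Cish ran in opposite directions across the livers. Ordered by Bcl6, the 3 livers with the most, control 2, HSC-PCK1-KO 4 and control 4 with 61.0 to 89.9 CPM, were the 3 with the least Cish, 3.96 to 5.51 CPM. The 4 livers with the least Bcl6, 10.1 to 16.4 CPM, had 12.2 to 49.9 CPM of Cish, and HSC-PCK1-KO 1 lay between them for both genes. The ratio of Cish to Bcl6 per kilobase of exon ranged from 0.0645 to 1.60 in HSC-PCK1-KO and from 0.0507 to 5.16 in control livers, a 102-fold range over the 8.

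The relation was chosen after the values were seen, so all 45 pairs of the 10 genes were computed. For Bcl6 and Cish, Pearson's r of log2 CPM was -0.923 over 8 libraries (exact permutation p = 0.00124, adjusted 0.0279 over the 45) and Spearman's rho was -0.881 (exact permutation p = 0.00724, adjusted 0.163). As deviations from each genotype's mean r was -0.928. Leaving out each library in turn gave an r of log2 CPM from -0.956 to -0.907, and the exact permutation p adjusted over the 45 was then 0.0685 to 0.161 in 7 of the 8 cases and 0.0446 without HSC-PCK1-KO 3. Without the 2 libraries farthest from the median of Bcl6, HSC-PCK1-KO 4 and control 2, r was -0.874 (exact permutation p = 0.0222, adjusted 0.375). The pairs past an adjusted p of 0.05 by Pearson's r were 2 of 45, this one and Igf1 with Igfals, and by Spearman's rho 0 of 45. How often pairs of other genes reach such an r was not computed. The closest genes outside the axis had a larger r, 0.979 for Wdr35 with Igf1 and 0.970 for Prox1 with Bcl6. Whether either pair is particular to the axis was not tested. Socs2, though a STAT5 target too, had r = -0.365 with Bcl6 (exact permutation p = 0.367, adjusted 0.786) and rho = -0.238 (exact permutation p = 0.582, adjusted 0.903).

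**Figure D4:**
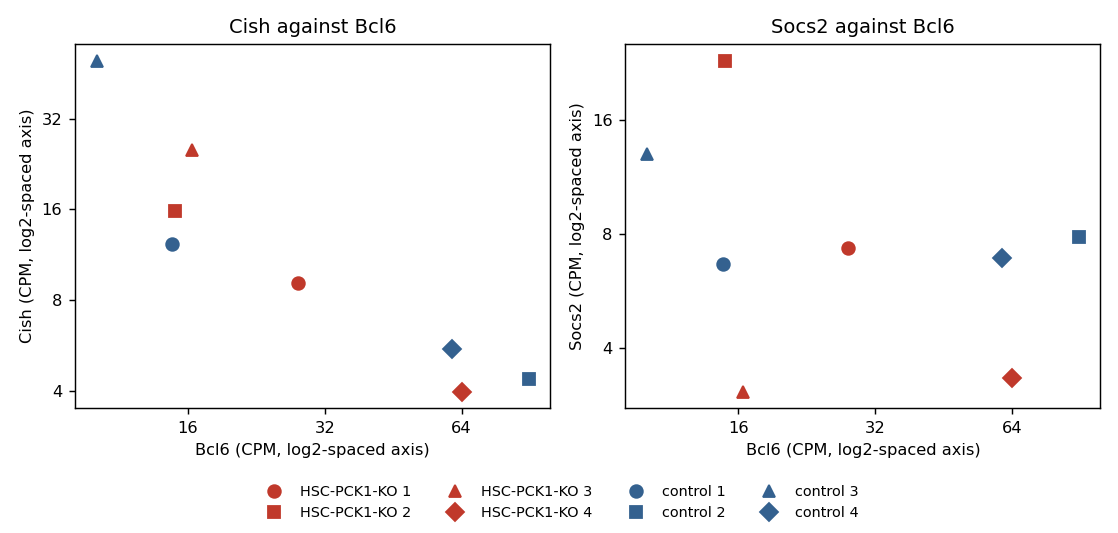
Cish (left) and Socs2 (right) against Bcl6, all in CPM on log2-spaced axes, 1 point per liver, with colour for genotype and shape for replicate number. Cish is lower where Bcl6 is higher in both genotypes (r = -0.923), while the Socs2 points are scattered (r = -0.365).

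The spread of Cish, Bcl6 and Socs2 within a genotype was far above that of other genes at their level. The biological coefficient of variation in edgeR's fit was 0.833 for Cish, 0.754 for Bcl6 and 0.643 for Socs2, against 0.147 for the median gene. Set over the trend at the same level, it was 584%, 589% and 377%, at the 99.9th, 99.9th and 99.4th percentile of all tested genes. Igfals stood at 174% and the 95.5th percentile, and Igfbp3 at 139% and the 91.4th. Ghr, Igf1, Stat5a, Stat5b and Cux2 lay below the trend, at 77.6% to 89.4% of it. By percentile of all tested genes they were near the middle, from 43.1 for Cux2 to 65.5 for Stat5b. These are descriptions of 8 libraries with no test.

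Onecut1, which encodes the hepatocyte factor HNF6 and is known in rat liver to respond to growth hormone, varied in part with Cish. It had 4.96, 5.79, 1.99 and 0.569 CPM in HSC-PCK1-KO livers 1 to 4, against 5.50, 4.13, 19.6 and 2.60 CPM in control livers 1 to 4, a 34.4-fold range. As for Cish, control 3 was highest and HSC-PCK1-KO 4 lowest, but HSC-PCK1-KO 3, with the second most Cish, was second lowest for Onecut1. Its log2 fold change was -1.25 (SE 0.86), with an adjusted p of 0.9998 in edgeR.

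Cux2 (ENSMUSG00000042589.19), a homeobox factor found mainly in female mouse liver, where it represses male-biased genes, was close to the limit of detection in these males. It had 10, 8, 15 and 13 counts in HSC-PCK1-KO livers 1 to 4, against 15, 12, 23 and 13 counts in control livers 1 to 4, or 0.240 ± 0.0639 CPM against 0.331 ± 0.106 CPM (SD, n = 4 each). The log2 fold change was -0.46 (SE 0.33), and at these counts the 95% interval still reached from 0.440-fold to 1.21-fold.

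Among genes downstream of the male and female growth hormone patterns, none passed the test between genotypes. The highest liver exceeded the lowest by over 2-fold for 15 of 19 tested male-biased genes, with a range from 1.77-fold to 41.5-fold, and for 13 of 15 tested female-biased genes, with a range from 1.48-fold to 182-fold. Of 20 male-biased genes, 19 were tested, and 14 had a negative and 5 a positive log2 fold change, with 0 called and a median of -0.080 beside -0.0055 over all genes. This lean rested on control 2: without that library 18 of 19 were positive with a median of 0.20. Of 26 female-biased genes, 15 passed the filter on low counts, with 10 positive, 5 negative, 0 called and a median of 0.15. The other 11, Cyp3a41a, Cyp3a44, Sult2a1 and Sult3a1 among them, were too low to test, and the median covers only those that passed. The direction turned with single libraries: 2 of 16 were positive without HSC-PCK1-KO 1 (median -0.25), 6 of 15 without control 2 (median -0.16) and 7 of 16 without control 3 (median -0.073). By the smallest p in edgeR, Nudt7, a peroxisomal coenzyme A hydrolase, averaged 531 ± 76.8 CPM in HSC-PCK1-KO livers, against 637 ± 203 CPM in control livers (SD, n = 4 each). Ntrk2, a neurotrophin receptor on the female list, averaged 10.3 ± 3.13 and 6.47 ± 4.24 CPM, and Fmo2, a monooxygenase on it, 6.28 ± 1.31 and 8.00 ± 3.21 CPM. None of the 3 passed, each with an adjusted p of 0.9998.

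The 2 lists leaned in opposite directions in all 8 libraries. As the median over tested genes of log2 CPM minus the 8-library mean, the male-biased list stood at -0.51, -0.083, 0.70 and -0.18 in HSC-PCK1-KO livers 1 to 4, against -0.62, 0.80, 0.31 and -0.37 in control livers 1 to 4. The female-biased list stood at 0.92, 0.29, -0.71 and 0.028 in HSC-PCK1-KO and 0.62, -1.36, -0.31 and 0.55 in control livers. Control 2 had the highest value of 14 of the 19 male-biased genes and the lowest of 11 of the 15 female-biased genes.

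Single genes of these lists ranged widely. Cyp2b9, a female-biased cytochrome P450, had 214, 38.8, 8.04 and 39.8 CPM in HSC-PCK1-KO livers, against 90.8, 4.13, 27.9 and 73.2 CPM in control livers. Selenbp2, a male-biased selenium-binding protein gene, had 52.3, 85.0, 372 and 184 CPM in HSC-PCK1-KO livers, against 57.4, 971, 264 and 131 CPM in control livers, a log2 fold change of -1.04 (SE 0.98). Hsd3b5, a male-biased steroid dehydrogenase, had 46.7, 95.4, 175 and 66.2 CPM in HSC-PCK1-KO livers, against 34.2, 377, 174 and 59.2 CPM in control livers. Cyp2b9 and Hsd3b5 were chosen after their values were seen. Selenbp2 and Hsd3b5 were both highest in control 2 and Cyp2b9 lowest there, while control 1 and HSC-PCK1-KO 1 lay at the other end for all 3.

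Of the 3 livers with the highest male-biased level, control 2 had the most Bcl6 of all, whereas HSC-PCK1-KO 3 and control 3 were among the 4 with the least. The relation of the lists to Bcl6 was not tested. Mup7, Mup12, Cyp4a12a, Cyp4a12b and Ugt2b38 have near-identical relatives, and their counts depend on how shared reads were assigned. Shared sequence was computed only for the axis genes, so other genes of the lists, Selenbp2 among them, may have the same limit.

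**Figure D5:**
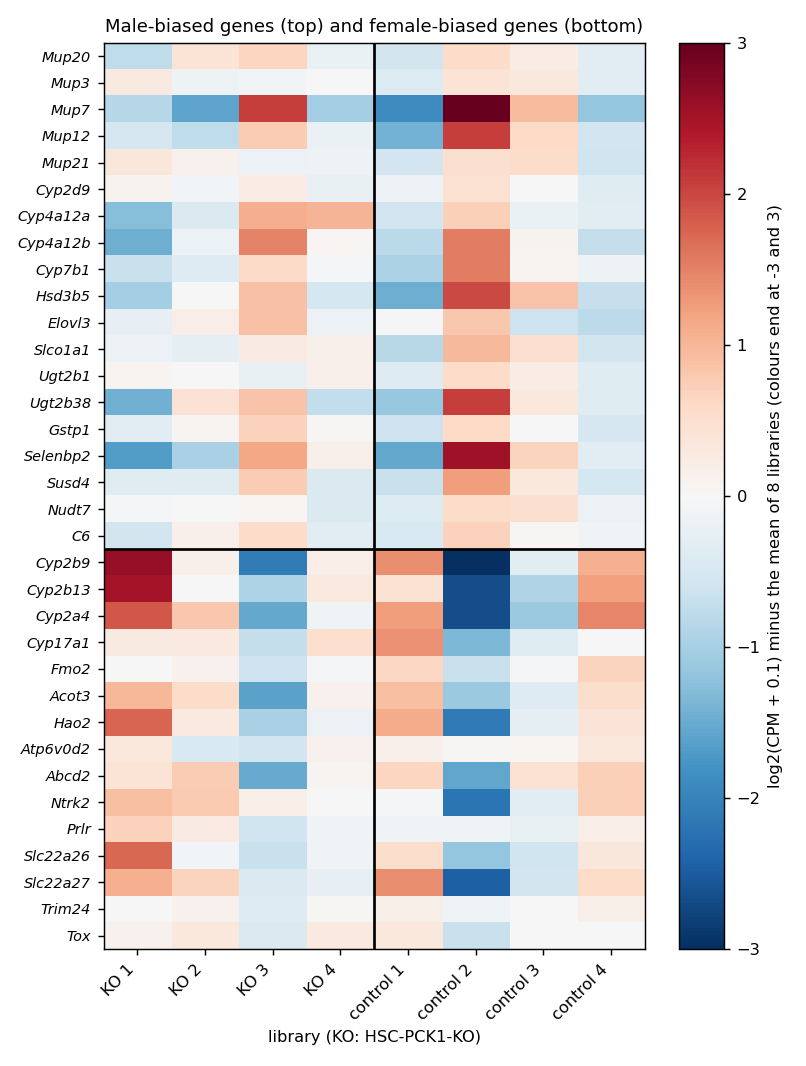
Male-biased (above the line) and female-biased (below it) genes that were tested, as log2(CPM + 0.1) minus the mean of the 8 libraries in colour, with HSC-PCK1-KO livers left of the vertical line and control livers right of it. Control 2 and HSC-PCK1-KO 3 are mostly red above and mostly blue below, and HSC-PCK1-KO 1 and control 1 are mostly the reverse, within both genotypes.

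In the rest of the pathway, no gene passed the test between genotypes. Of 18 tested genes of growth hormone receptor signalling, 7 had a positive and 11 a negative log2 fold change, 0 were called and the median was -0.018. The 2 with the smallest p were Sh2b3, an adaptor that restrains JAK2, at 18.0 ± 0.468 CPM in HSC-PCK1-KO livers, against 19.5 ± 1.46 CPM in control livers, and Ptpn1, a tyrosine phosphatase that acts on JAK2, at 22.2 ± 2.13 and 24.4 ± 2.30 CPM (SD, n = 4 each). Neither passed in edgeR, with adjusted p of 0.9998 for both. Jak2 itself had 15.7, 17.0, 15.0 and 18.5 CPM in HSC-PCK1-KO livers, against 16.4, 13.8, 16.2 and 16.4 CPM in control livers.

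Of 15 other genes of the IGF system, 10 were tested, with 2 positive, 8 negative, 0 called over all genes and a median of -0.079. At an unadjusted p under 0.05 in edgeR there were 2 of the 10, against 2.36% of all tested genes. Igf2, the fetal growth factor, was among the 5 too low to test. Igfbp6, a binding protein with a preference for IGF2, had 0.424, 0.342, 0.603 and 0.711 CPM in HSC-PCK1-KO livers 1 to 4, against 1.93, 0.825, 0.867 and 1.78 CPM in control livers 1 to 4. The groups did not overlap, but the log2 fold change of -1.38 (SE 0.36) did not pass, with an unadjusted p of 0.00301 and an adjusted p of 0.9998 in edgeR. Igfbp5, another binding protein, stood at 7.52 ± 1.13 against 13.2 ± 5.13 CPM (SD, n = 4 each), a log2 fold change of -0.81 (SE 0.28) with an unadjusted p of 0.017 and an adjusted p of 0.9998. Markers of mesothelial cells, all 5 detected, also summed lower in HSC-PCK1-KO livers, with 0 called. The sum was 1.56, 2.09, 2.74 and 3.48 CPM there, against 10.2, 4.81, 3.49 and 10.3 CPM in control livers. No correlation of this list with Igfbp6 was computed. The 10 activated stellate cell markers summed to 81.2 to 150.0 CPM in HSC-PCK1-KO livers, against 91.2 to 239 CPM in control livers. The part of either list in the Igfbp5 and Igfbp6 values was not tested.

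Lipid genes known to be raised in mouse livers that cannot respond to growth hormone, such as Cd36, Pparg and Cidec, had 6 positive and 2 negative log2 fold changes out of 8, a median of 0.17 and 0 calls. Without control 2, 3 of 8 were positive with a median of -0.13, and without control 1 the median was 0.54. Mogat1, a monoacylglycerol acyltransferase, averaged 4.98 ± 1.51 CPM in HSC-PCK1-KO livers, against 3.58 ± 2.05 CPM in control livers, and Fabp4, a fatty acid binding protein, 9.90 ± 2.75 and 12.0 ± 4.23 CPM (SD, n = 4 each). The median level of this list was lowest in control 2, at -1.23 relative to the 8-library mean on the log2 scale, and highest in control 1, at 0.74.

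Genes of fasting and insulin response, which alter hepatic growth hormone sensitivity, were positive in 5 and negative in 7 of 12, with 0 called and a median of -0.077. The 7 include Pck1, the gene of the knockout, at -0.78 (SE 0.44). Over fits that each left out 1 library, the median of the list ran from -0.19 to 0.0041. The first was without HSC-PCK1-KO 2, with 3 of 12 positive, and the second without HSC-PCK1-KO 3, with 6 of 12 positive. Lpin1, a phosphatidate phosphatase and coactivator, stood at 33.9 ± 8.14 CPM in HSC-PCK1-KO livers, against 52.9 ± 15.9 CPM in control livers (SD, n = 4 each), a log2 fold change of -0.64 (SE 0.24) with an unadjusted p of 0.0274 and an adjusted p of 0.9998 in edgeR. G6pc, glucose-6-phosphatase, stood at 466 ± 120 and 676 ± 242 CPM. Igfbp1, an insulin-repressed binding protein on both this and the IGF list, had 17.7 to 51.3 CPM in HSC-PCK1-KO livers, against 19.95 to 61.5 CPM in control livers, with the groups overlapping.

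Of 16 acute phase genes, whose inducing cytokines can blunt growth hormone signalling, 10 were positive, 6 negative and 0 called, with a median of 0.097. HSC-PCK1-KO 1 was the highest liver for 9 of the 16, and without it 4 of 16 were positive with a median of -0.076. Saa1, a serum amyloid, had 1166 CPM in HSC-PCK1-KO 1 and 79.5 to 168 CPM in the other 3 HSC-PCK1-KO livers, against 47.7 to 231 CPM in control livers. Orm1, an orosomucoid, averaged 537 ± 143 against 443 ± 63.6 CPM (SD, n = 4 each). Among 12 hepatocyte transcription factors, 4 were positive, 8 negative and 0 called, with a median of -0.063. Without control 2, 8 of 12 were positive with a median of 0.017. Nr1h4, the bile acid receptor, stood at 135 ± 10.8 CPM in HSC-PCK1-KO livers, against 144 ± 7.22 CPM in control livers.

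Genes with the most similar profile over the 8 libraries were named for 4 of the axis genes, by Pearson's r of log2 CPM among 11549 genes with a mean of at least 1 CPM (11550 for Cux2). For Ghr they were Ugt3a2, a glycosyltransferase (r = 0.985), Akr1c6, an aldo-keto reductase (0.969), and Plg, which encodes plasminogen (0.964). For Bcl6 they were the hepatocyte factor Prox1 (0.970), Mug2, a murinoglobulin (0.960), and the cytochrome P450 Cyp2c37 (0.943). Prox1 had 109, 92.4, 93.6 and 114 CPM in HSC-PCK1-KO livers, against 86.4, 133, 78.4 and 124 CPM in control livers, an order that differed from that of Bcl6 only in HSC-PCK1-KO 4 and control 4. For Igf1 they were Wdr35 (0.979), Pms1 (0.969) and Prkrip1 (0.969), and for Cux2, at its few counts, Cdyl (0.951), Sri (0.920) and Polr2g (0.904). These were picked as the highest among many genes, and the values describe the libraries with no test.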

How the data were processed

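Whole-liver mRNA was sequenced in 4 HSC-PCK1-KO and 4 control libraries, with strand-specific paired-end reads of 100 bases and RNA integrity numbers of at least 8, per the labels' protocols. The authors deposited raw counts per gene as whole numbers, not normalized. GRCm39 and R 4.3.2 are named in the submitters' processing notes. Aligner, counter, annotation and strand setting: not given in the sources used here. Symbols came from GENCODE M21, which named 52029 of 56953 identifiers, and lengths are the union of its exons. Promoter sequences are from RefSeq on GRCm38.p6.

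In R 4.3.3, edgeR 4.0.16 was used with filterByExpr (15669 of 28811 genes with any count), TMM factors and its quasi-likelihood test (robust), with genotype as single term, Benjamini-Hochberg adjustment over all genes and a threshold of 0.05. Log2 CPM used a prior count of 2. The calculation was tested on simulated data. Correlations used exact two-sided permutation tests over all pairings. The alternatives tried were DESeq2 1.42.0, limma-voom with sample weights (limma 3.58.1), scaling by RLE or by upper quartile, a filter of 1 CPM in at least 4 libraries, none at all, a block for replicate number, a prior count of 0.5 for relations, and leaving out each library. The rule for names took the 10 members, the 2 lowest p-values of each of 8 lists, and the 3 genes most like Igf1, Ghr, Bcl6 and Cux2. Any other named gene was chosen after its values were seen. The members and lists were chosen with earlier results of these data known. Across tested genes the SE of log2 fold changes had a median of 0.13. Between replicates of a group, chi-square divided by its degrees of freedom was 48.7 to 184.9, so none was a second sequencing of another's library. These values do not tell separate livers from separate samples of the same liver.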

Additional observations from a re-analysis of the deposited data

Results flagged for a closer look

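For 43 genes, the 10 of the axis and the others whose levels or similar profiles are given, a library was checked for lying far from the other 3 of its group. This was so in 5 of 86 groups of 4. For genes chosen before their values were seen, chance gives about 1 in 20, or 4.3 groups. Some of the 43, Cyp2b9 among them, were chosen after, so this rate cannot be set against the 5. Saa1 stood at 1170 CPM in HSC-PCK1-KO 1, against 79.5 to 168 CPM in the other 3 HSC-PCK1-KO livers. Onecut1 stood at 19.6 CPM in control 3, the liver with the most Cish, against 2.60 to 5.50 CPM in the other 3 controls. Nr1h4 stood at 155 CPM in control 3, against 140 to 141 CPM in the other 3 controls. Cyp2b9 stood at 214 CPM in HSC-PCK1-KO 1, against 8.04 to 39.8 CPM in the other 3 HSC-PCK1-KO livers. Jak2 stood at 13.8 CPM in control 2, against 16.2 to 16.4 CPM in the other 3 controls.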

How the results depend on the processing

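The axis had 0 genes past the threshold under every alternative run. Over all genes DESeq2 called 6, and leaving out single libraries gave 0 to 1, the 1 without control 1. Scaling by RLE or upper quartile factors shifted the log2 fold changes by a median of 0.0013 and 0.0049. The replicate numbers did not pair the livers, with correlations of same-numbered deviations from -0.329 to 0.0576, and with the replicate block 0 genes were called and Socs2 was at -0.35. By limma-voom Socs2 was at -0.19 and Ghr at -0.0059. Leaving out each library moved log2 fold changes across 0 for Ghr (-0.068 to 0.080), Igf1 (-0.13 to 0.012), Igfals (-0.29 to 0.0024), Socs2 (-0.92 to 0.38), Cish (-0.90 to 0.88), Stat5b (-0.052 to 0.092) and Bcl6 (-1.15 to 0.11), but not for Stat5a, Cux2 or Igfbp3. The median of each of the 6 lists of sex-biased, lipid, fasting, acute phase and hepatocyte factor genes changed sign in at least 1 of these subsets, while those of receptor signalling (-0.060 to -0.0084) and the IGF system (-0.196 to -0.069) stayed negative. Relations of Igf1 over these subsets ranged from 0.886 to 0.954 with Igfals, -0.225 to 0.523 with Cish, -0.424 to 0.646 with Stat5b, -0.486 to 0.386 with Bcl6 and -0.296 to 0.120 with Cux2. Without the 2 farthest libraries they were 0.870 with Igfals, 0.255 with Stat5b and -0.183 with Bcl6. That of Bcl6 with Cish was then -0.874, and -0.956 to -0.907 over the subsets, where the adjusted p passed only without HSC-PCK1-KO 3. The cause was not tested for any of these changes. At 8 to 23 counts a library, Cux2 is limited by depth.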
